A study of Mus musculus with 6 samples.

Results

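The Toll-like receptor genes Tlr1, Tlr2, Tlr3, Tlr4, Tlr6, Tlr7, Tlr8, Tlr9 and Tlr13 and the co-receptor gene Cd14 were compared between mouse aortas with and without the microRNA gene MiR26b. The 10 genes were taken by symbol from 36557 gene rows, and all 10 were among the 17392 genes that passed the filter on low counts. They were divided by where the protein meets its ligand. Tlr1, Tlr2, Tlr4, Tlr6 and Cd14 make up the 5 cell surface genes, and Tlr3, Tlr7, Tlr8, Tlr9 and Tlr13 the 5 endosomal genes.

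RNA had been sequenced from aortic arch together with thoracic aorta, taken after a PBS flush of the vessels. The control group held 3 libraries labelled Apoe-/- control and the knockout group 3 libraries labelled Apoe-/- MiR26b-/-, so every animal lacked apolipoprotein E, a state that raises plasma cholesterol and leads to plaque. All had been on a high-fat diet (HFD) for 4 weeks, and no library without the Apoe deletion or on another diet was used here. The labels give no age or sex and do not say that each library is a separate animal, so a p-value here tells of the spread over these libraries only, which may be technical. RNA had a mean integrity number of 7.0 over the samples. The deletion of MiR26b itself was not checked here.

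Toll-like receptors are membrane proteins that bind conserved molecules of microbes and, in some settings, molecules of the host. At the cell surface Tlr2 pairs with Tlr1 or Tlr6 to bind lipopeptides, while Tlr4, with its partner MD-2 (gene Ly96) and Cd14, binds lipopolysaccharide. In endosomes the receptors bind nucleic acids, and Unc93b1 carries them there from the endoplasmic reticulum. Most signal through the adaptor Myd88 to NF-kB and interferon regulatory factors, whereas Tlr3 uses the adaptor Ticam1. In the atherosclerotic artery they are known from macrophages and, for some members such as Tlr3 and Tlr4, also from cells of the vessel wall.

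Knockout replicate 3 stood apart from its group. On the first principal component of all tested genes (59.0% of variance) the controls lay between -48.3 and -26.1, knockout replicates 1 and 2 at 48.9 and 58.3, and knockout replicate 3 at 1.94. Totals were between 51634139 and 54817547 deposited counts per library. The 8 smooth muscle markers, which define the labelled tissue, summed to between 30472 and 35139 units of normalized TPM (transcript levels per length and library size, rescaled by the authors) in the controls and between 21658 and 24987 in the knockouts, and 4 of them fell. Macrophage markers moved with the groups: 13 of 14 rose and Mertk, a receptor for the uptake of dying cells, fell by 0.26 on the log2 scale (SE 0.06, edgeR adjusted p = 0.0443). Their summed level was 833 to 1048 normalized TPM in the controls and 4883, 5364 and 1996 in knockout replicates 1, 2 and 3. Of 9 tested neutrophil markers 1 rose (sums of 10.5 to 32.7 in controls and 21.7 to 139 in knockouts), and of 8 dendritic cell markers 4 rose (16.6 to 21.8 and 29.7 to 39.9). B cell markers stood apart in control replicate 2, at 544, against 38.9 to 61.8 in the other libraries. No listed marker was at 0 in every library. In whole tissue, more cells of a type and more RNA per cell cannot be told apart, and the part of these cell markers in the results that follow was not tested.

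The edgeR quasi-likelihood test, adjusted by Benjamini-Hochberg over all tested genes, called 7 of the 10 genes higher in the knockouts (Tlr1, Tlr2, Tlr6, Cd14, Tlr7, Tlr8 and Tlr13) and 0 lower. Over all tested genes 6.5% rose (1131 of 17392) and 3.84% fell (667). The rises ran from 1.86-fold for Tlr6 to 5.86-fold for Tlr13. Tlr4, Tlr3 and Tlr9 did not pass the test. All 10 log2 differences were above 0, so 0 were lower at an unadjusted p under 0.05 or by DESeq2 or limma-voom, while 9 were higher at that unadjusted level, all but Tlr4. In those 9 genes every knockout library lay above every control library in CPM, which was so for 18.9% of all tested genes (3280 of 17392). The 10 genes had log2 differences between 0.07 and 2.55, where the median over all tested genes was -0.0033.

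Among the knockouts the levels were uneven. In the plot of levels by library, knockout replicate 3 was the lowest knockout for 9 of the 10 genes, all but Tlr3, and the other knockouts stood close together. Without that library the same 7 genes were called, at edgeR adjusted p between 0.000433 and 0.00336, beside 17.2% of all tested genes called higher (3051 of 17720). Leaving out any other library took away nearly all calls over the whole table: 0%, 0.293%, 0%, 0.0396% and 0.227% of all tested genes were then called higher by edgeR without control replicate 1, 2 or 3 or knockout replicate 1 or 2. Of the 10 genes 0 were called in each of these fits, with 7, 8, 7, 7 and 8 of them at an unadjusted p under 0.05. Of the 10 genes DESeq2 called 8 higher, beside 13% of all genes it tested, and limma-voom called 1 (Tlr7), beside 3.21%. Limma on log2(normalized TPM + 1) called 0, with 8 at an unadjusted p under 0.05, beside 2.65%.

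**Figure D1:**
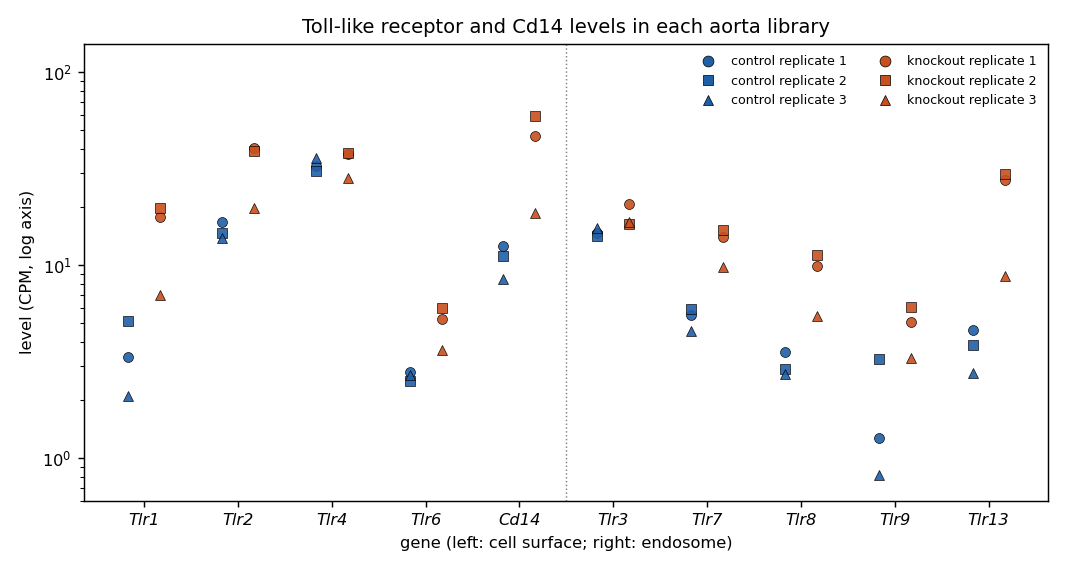
Level of each gene in each library, in CPM (counts scaled to library size) on a log axis, with controls in blue, knockouts in orange and a marker shape for each replicate number. The 3 knockout libraries lie above the 3 controls for 9 genes and overlap them for Tlr4. Knockout replicate 3 (orange triangle) is nearest the controls for 7 called genes, as for Cd14 at 18.5 CPM against 46.8 and 59.3.

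**Figure D2:**
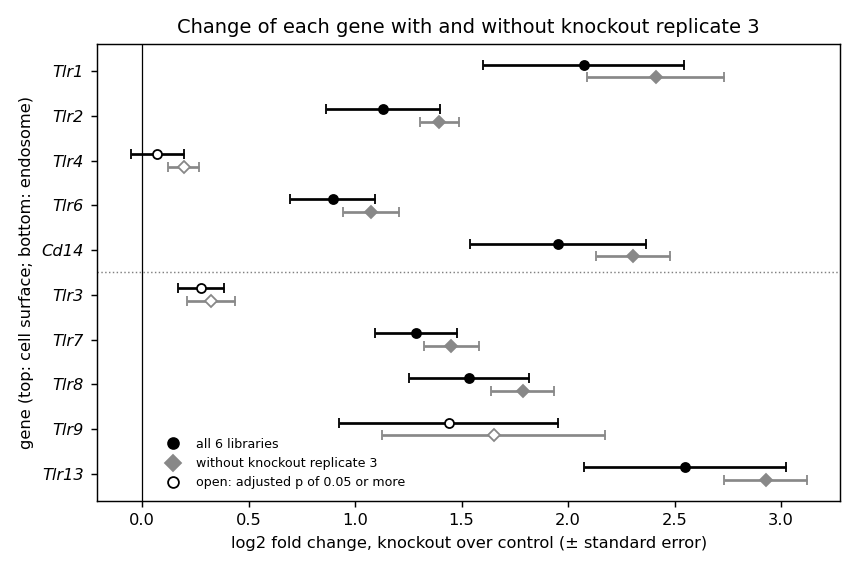
Log2 fold change of each gene, knockout over control, with its standard error from the edgeR fit, over all 6 libraries (black) and without knockout replicate 3 (grey); filled symbols have an adjusted p under 0.05. Every estimate is larger without that library, and the same 7 genes are filled in both.

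Tlr2 (ENSMUSG00000027995, chromosome 3, 83836272 to 83841767, minus strand, GRCm38) is the common partner in the lipopeptide receptors. It stood at 16.8, 14.7 and 13.8 CPM (counts scaled to library size with TMM factors) in control replicates 1, 2 and 3 and at 40.3, 39.2 and 19.7 CPM in knockout replicates 1, 2 and 3. Knockout replicates 1 and 2 were far above the controls and knockout replicate 3 just above the highest of them. The mean rose from 15.1 ± 1.58 to 33.0 ± 11.6 CPM (SD, n = 3 libraries each), a log2 difference of 1.13 (SE 0.27, edgeR adjusted p = 0.0477).

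Tlr1 (ENSMUSG00000044827, chromosome 5, 64924679 to 64933563, minus strand), which pairs with Tlr2 for triacylated lipopeptides, had 3.35, 5.15 and 2.09 CPM in the controls and 17.8, 19.8 and 7.01 CPM in the knockouts. Groups did not overlap, and the controls themselves were spread widely, with control replicate 2 highest. The mean rose from 3.53 ± 1.54 to 14.9 ± 6.87 CPM, a log2 difference of 2.07 (SE 0.47, edgeR adjusted p = 0.0437). Tlr6 (ENSMUSG00000051498, chromosome 5, 64952031 to 64960097, minus strand), the partner of Tlr2 for diacylated lipopeptides, had 2.80, 2.52 and 2.68 CPM in the controls and 5.26, 5.98 and 3.64 CPM in the knockouts. Its controls were tight and all knockouts were above them. The log2 difference was 0.90 (SE 0.20, edgeR adjusted p = 0.0420), the smallest of the 7 rises.

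Tlr1 and Tlr6 are neighbours on chromosome 5, 18468 bases apart, and part of their coding sequence is the same letter for letter. Of the 31-base words in the annotated Tlr1 transcripts, 18.3% also occur in Tlr6 transcripts. The longest run without a difference holds 229 bases, from base 1939 to 2167 of the longest Tlr1 transcript and from 1652 to 1880 of the longest Tlr6 transcript (GENCODE mouse release 21), coding in both. It is shown because a read inside it names neither gene:
Tlr1 and Tlr6, shared run: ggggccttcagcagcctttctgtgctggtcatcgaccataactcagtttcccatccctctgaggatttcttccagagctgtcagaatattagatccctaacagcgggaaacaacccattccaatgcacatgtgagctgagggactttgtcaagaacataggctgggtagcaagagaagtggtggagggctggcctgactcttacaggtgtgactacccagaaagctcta
kallisto shares such reads between the genes by estimate. With both genes summed, the log2 difference was 1.68 (edgeR adjusted p = 0.0377), between the single values. For Tlr2, Cd14, Tlr7, Tlr8, Tlr9 and Tlr13 no 31-base word was shared with another annotated gene.

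Tlr4 (ENSMUSG00000039005, chromosome 4, 66827584 to 66930284, plus strand), the lipopolysaccharide receptor, had 32.7, 30.8 and 35.7 CPM in the controls and 37.8, 38.1 and 28.4 CPM in the knockouts. The groups overlapped, with knockout replicate 3 the lowest of all 6 libraries and the other knockouts the highest. The log2 difference was 0.07 (SE 0.13, edgeR adjusted p = 0.740), and without knockout replicate 3 it was 0.20 (adjusted p = 0.0915).

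Cd14 (ENSMUSG00000051439, chromosome 18, 36725067 to 36726798, minus strand), which hands lipopolysaccharide to Tlr4 and also serves Tlr2, had 12.6, 11.1 and 8.52 CPM in the controls and 46.8, 59.3 and 18.5 CPM in the knockouts. All knockouts were above all controls, the third by the least. The mean rose from 10.7 ± 2.05 to 41.6 ± 20.9 CPM, a log2 difference of 1.95 (SE 0.42, edgeR adjusted p = 0.0390). On the scale of normalized TPM, which allows for gene length, the ratio of Cd14 to Tlr4 was 1.06, 1.05 and 0.661 in the controls and 3.49, 4.39 and 1.88 in the knockouts. All knockouts were above all controls in this ratio. The ratio of Ly96, the partner that binds the lipid itself, to Tlr4 was 0.773 to 1.11 in the controls and 1.05 to 1.13 in the knockouts, which overlap.

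Tlr13 (ENSMUSG00000033777, chromosome X, 106143204 to 106160493, plus strand), an endosomal receptor for bacterial ribosomal RNA, had the largest difference of the 10 genes. Its level was 4.63, 3.86 and 2.76 CPM in the controls and 27.5, 29.6 and 8.81 CPM in the knockouts. Even knockout replicate 3 lay clear of the highest control. The mean rose from 3.75 ± 0.942 to 22.0 ± 11.5 CPM, a log2 difference of 2.55 (SE 0.47, edgeR adjusted p = 0.0325).

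Tlr7 (ENSMUSG00000044583, chromosome X, 167304929 to 167330558, minus strand) and Tlr8 (ENSMUSG00000040522, chromosome X, 167242696 to 167264329, minus strand) lie side by side, 40600 bases apart, and belong to the receptors for RNA with unpaired bases. For Tlr7 the controls read 5.48, 5.94 and 4.55 CPM and the knockouts 13.9, 15.2 and 9.77 CPM. No values overlapped, and the log2 difference of 1.29 (SE 0.19) had the lowest p of the 10 genes (edgeR adjusted p = 0.0245). For Tlr8 the controls read 3.55, 2.88 and 2.74 CPM and the knockouts 9.84, 11.3 and 5.44 CPM, again without overlap. The log2 difference of Tlr8 was 1.53 (SE 0.28, edgeR adjusted p = 0.0322). Unlike Tlr1 and Tlr6, the longest run that this pair's longest transcripts share is 13 bases.

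Tlr9 (ENSMUSG00000045322, chromosome 9, 106222598 to 106226883, plus strand), the receptor for unmethylated CpG DNA, was the least abundant of the 10 genes. It had 1.27, 3.25 and 0.818 CPM in the controls and 5.07, 6.09 and 3.30 CPM in the knockouts. Control replicate 2 was far above the other controls and just under knockout replicate 3. The log2 difference of 1.44 (SE 0.51) did not pass the test (edgeR adjusted p = 0.115). Control replicate 2 is the library in which the summed B cell markers were 544 normalized TPM, against 46.2 and 38.9 in the other controls. The part of those cells in the Tlr9 level was not tested. Without control replicate 2 the log2 difference was 2.20 (adjusted p = 0.0696).

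Tlr3 (ENSMUSG00000031639, chromosome 8, 45395665 to 45411080, minus strand), the receptor for paired strands of RNA, had 14.6, 14.2 and 15.5 CPM in the controls and 20.8, 16.2 and 16.7 CPM in the knockouts. The knockouts were all above the controls in CPM by a small margin, and the groups overlapped in normalized TPM. The log2 difference was 0.28 (SE 0.11, edgeR adjusted p = 0.145). An annotated antisense gene, Gm45542, overlaps Tlr3 and shares 6.1% of its 31-base words, and since the labels do not say whether strand was kept, reads inside that stretch cannot be told apart.

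The other family genes in the tables were all of low level. Tlr5, the flagellin receptor, had means of 2.36 ± 0.651 and 2.43 ± 0.386 CPM in controls and knockouts, Tlr11 had 0.222 ± 0.0786 and 0.630 ± 0.0796 CPM, and Tlr12 had 0.578 ± 0.223 and 1.23 ± 0.538 CPM. Of these Tlr11 rose by 1.49 on the log2 scale (SE 0.30, edgeR adjusted p = 0.0347), without overlap of the groups, while Tlr5 (0.04, adjusted p = 0.926) and Tlr12 (1.08, adjusted p = 0.158) did not pass.

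Surface and endosomal receptors spread over much the same range of change. The median log2 difference was 1.13 over the 5 surface genes, of which 4 rose, and 1.44 over the 5 endosomal genes, of which 3 rose. Their difference, surface minus endosomal, was -0.31, a description with no test, where the difference between the per-library medians given next had an SD of 0.112 within groups. Taken by library against the control mean, the surface median was 1.42, 1.38 and 0.45 in knockout replicates 1, 2 and 3 and the endosomal median 1.69, 1.89 and 0.88. The endosomal median was thus the higher in each knockout. The smallest log2 differences were those of Tlr4 at the surface (0.07) and Tlr3 in endosomes (0.28), and the largest those of Tlr1 (2.07) and Tlr13 (2.55). The range within each group was wider than the gap between their medians. The gap depended on the scale: it was 0.08 from limma on log2(normalized TPM + 1) and -0.0061 with Tlr1 and Tlr6 summed and Tlr7 and Tlr8 summed.

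Per length, in normalized TPM, the order of the genes changed between groups. In the controls Tlr4 was the highest (12.4 to 14.4), followed by Cd14 (9.52 to 14.1), Tlr3 (7.13 to 9.76), Tlr2 (7.32 to 8.99), Tlr1 (3.15 to 5.49), Tlr7 (2.06 to 2.93), Tlr8 (1.92 to 2.37), Tlr6 (1.64 to 1.75), Tlr13 (1.06 to 2.04) and Tlr9 (0.371 to 1.47). Of these neighbours, Tlr2 and Tlr1, Tlr1 and Tlr7, and Tlr8 and Tlr6 did not overlap. In the knockouts Cd14 came first (21.7 to 68.0), then Tlr2 (10.6 to 22.0) and Tlr4 (11.6 to 15.8), and every pair of neighbours overlapped. As a share of the summed level of the 10 genes, Tlr4 made up 23.0%, 21.9% and 28.1% in the controls and 10.6%, 9.56% and 15.3% in the knockouts. Cd14 made up 24.4%, 22.9% and 18.5% in the controls and 28.8% to 42.0% in the knockouts, lowest in knockout replicate 3. Tlr13 made up between 2.07% and 3.62% in the controls and between 5.10% and 7.46% in the knockouts. The groups did not overlap in any of these 3 shares. They overlapped in the shares of Tlr1, Tlr2, Tlr3, Tlr6, Tlr7, Tlr8 and Tlr9. The ratio of Tlr13 to Tlr7 did not overlap, at 0.513 to 0.696 in the controls and 0.895 to 1.82 in the knockouts. Nor did the ratios of Tlr13 to Tlr3, Tlr3 to Tlr7 and Tlr2 to Tlr4. Overlap was seen in the ratios of Tlr1 to Tlr2, Tlr6 to Tlr2, Tlr1 to Tlr6, Tlr7 to Tlr8 and Tlr7 to Tlr9. How often shares or ratios separate the groups over all genes was not counted.

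Tlr1 was the member whose difference depended most on the unit. Its mean was 4.21-fold higher in CPM and 2.77-fold higher in normalized TPM, from 4.66 ± 1.31 to 12.9 ± 5.19. Estimated counts per unit of normalized TPM, which follow the length of the transcripts that reads were assigned to, were 33.2, 48.8 and 34.9 for Tlr1 in the controls and 60.2, 65.1 and 53.5 in the knockouts. All knockouts were above all controls. For Tlr2, which has 1 annotated transcript, the same quantity lay between 97.3 and 99.1 in all 6 libraries. Tlr1 has 3 annotated transcripts of 419 to 3025 bases, and which of them took the reads is not given in the tables used here. A smaller shift of the same kind was seen for Tlr8 (69.8 to 79.1 in controls and 82.3 to 94.0 in knockouts), and Tlr13 was low in control replicate 2 alone (98.4, against 121 to 137).

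**Figure D3:**
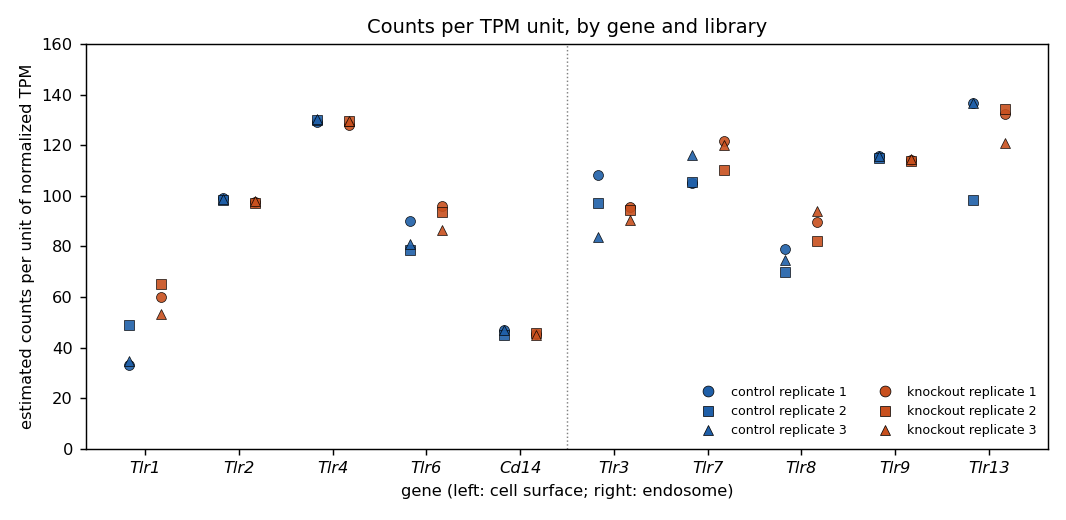
Estimated counts per unit of normalized TPM for each gene and library, with controls in blue, knockouts in orange and a marker shape for each replicate number. Tlr2, Tlr4, Cd14 and Tlr9 are flat over the libraries, while Tlr1 lies at 33.2 to 48.8 in controls and 53.5 to 65.1 in knockouts.

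The members were also read against the macrophage markers. As a percent of the summed level of the 14 macrophage markers in the same library (normalized TPM), Tlr4 was 1.28, 1.18 and 1.73 in the controls and 0.323, 0.289 and 0.579 in the knockouts. Tlr2 was 0.860, 0.741 and 0.878 in the controls and 0.451, 0.396 and 0.530 in the knockouts. For 7 of the 10 genes every knockout was below every control on this scale, which was so for 91% of all tested genes (15823 of 17392), so the count says little about the receptors. Cd14 was at 1.35, 1.23 and 1.14 against 1.13, 1.27 and 1.09, and Tlr13 was 0.171, 0.195 and 0.127 against 0.227, 0.217 and 0.193, so that both overlapped, as did Tlr9. The median over the 10 genes was -0.72 on the log2 scale. That value depends on the abundant markers in the sum, of which Lyz2, a lysozyme gene, was the highest (324 ± 35.4 and 1652 ± 803 CPM). With Csf1r, the receptor for macrophage colony stimulating factor, in place of the sum the median was 0.14. With the mean log2 level of the macrophage markers as a covariate in the edgeR fit, 0 of the 10 genes and 0 of 17392 genes were called, with 1 and 1267 at an unadjusted p under 0.05, and 4 of the 10 log2 differences were above 0. The 1 gene was Cd14, at -0.52 on the log2 scale (SE 0.20). The covariate was 4.57 to 5.01 in the controls and 5.80 to 6.94 in the knockouts, without overlap. This fit can therefore hardly tell the marker level from the group, and no conclusion is drawn from the loss of calls.

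**Figure D4:**
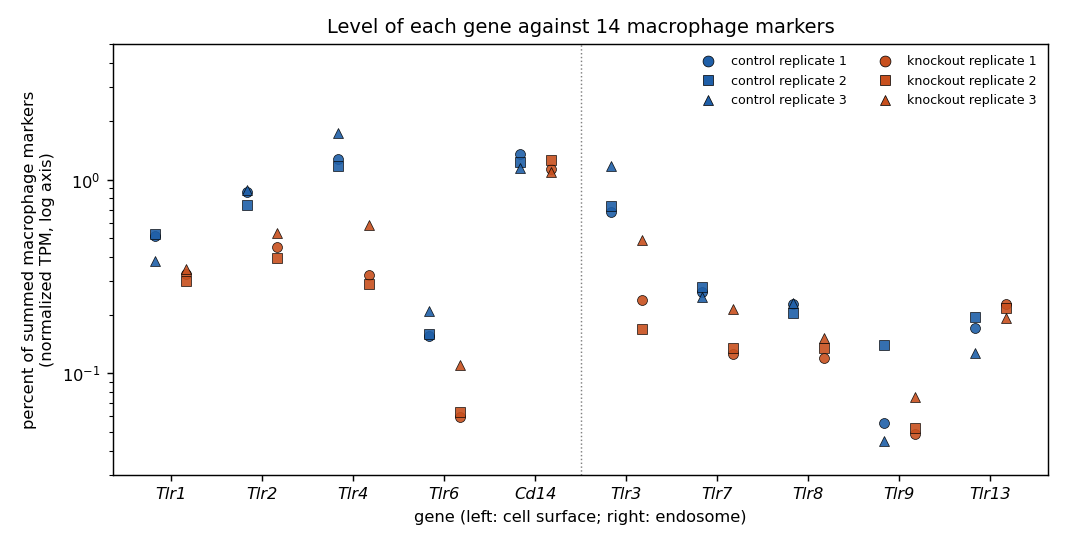
Level of each gene as a percent of the summed normalized TPM of 14 macrophage markers in the same library, on a log axis, with controls in blue, knockouts in orange and a marker shape for each replicate number. Knockouts lie below controls for 7 genes, as for Tlr4 at 0.289 to 0.579 against 1.18 to 1.73, and overlap them for Cd14, Tlr9 and Tlr13.

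The rest of the pathway was read from lists of its genes by role. Of 111 tested genes in 7 lists of pathway and related genes, 42 rose and 2 fell, beside the 6.5% and 3.84% of all tested genes, and their median log2 difference was 0.78. Without control replicate 1, 2 or 3 the rises numbered 0, 4 and 0 and without knockout replicate 1 or 2 they numbered 0 and 4, with 61 to 72 higher at an unadjusted p under 0.05, in the fits where at most 52 genes of the whole table were called higher, while 79 rose without knockout replicate 3. Falls were called by edgeR, DESeq2 and limma-voom among kinases and ligases alone, and outside that list 1 gene was lower at an unadjusted p under 0.05, an inhibitor.

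The accessory proteins fold, carry, cut or feed ligand to the receptors. Of 16 tested 8 rose and 0 fell, with a median of 1.25. Ctss, a protease that cuts endosomal receptors into their active form, rose by 3.07 on the log2 scale (SE 0.49, edgeR adjusted p = 0.0270). Slc15a3, an endosomal peptide carrier, rose by 3.16 (SE 0.60, adjusted p = 0.0328), Ly86, the partner of Cd180, by 1.74 (SE 0.28, adjusted p = 0.0285), and Lbp, the plasma protein that carries lipopolysaccharide to Cd14, by 1.22 (SE 0.18, adjusted p = 0.0241). The chaperone gene Hsp90b1, which folds Toll-like receptors, had a log2 difference of 0.03 (adjusted p = 0.823) and the protease gene Ctsl one of 1.29 (adjusted p = 0.0599). Unc93b1, chosen here after its value was seen, rose by 1.34 (SE 0.26, adjusted p = 0.0338), and per unit of the 5 summed endosomal receptors it read 1.92 to 2.83 in controls and 2.63 to 2.96 in knockouts, which overlap.

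Adaptors bind the receptors' inner domain and pass the signal to kinases. Of 6 tested adaptors 2 rose, with a median of 0.39: Pik3ap1, a link to PI3 kinase, by 2.15 (SE 0.41, edgeR adjusted p = 0.0332) and Ticam2, the bridging adaptor of Tlr4, by 1.06 (SE 0.23, adjusted p = 0.0404). Myd88, the adaptor that most members use, went from 33.6 ± 1.35 to 49.7 ± 10.1 CPM and did not pass (adjusted p = 0.0573), and Tirap had a log2 difference of 0.21 (adjusted p = 0.269). Of 19 tested kinases and ubiquitin ligases 0 rose by edgeR and 2 fell, with a median of 0.04. At an unadjusted p under 0.05 6 were higher and 4 lower, and DESeq2 called 4 higher and limma-voom 0. Both that fell are Pellino ligases, which modify IRAK kinases. Peli1 fell by 0.60 (SE 0.06, adjusted p = 0.01) from 43.5 ± 2.51 to 28.7 ± 0.514 CPM, and Peli2 by 0.57 (SE 0.12, adjusted p = 0.0373). The kinase Ikbkb and its upstream partner Tab2 had log2 differences of 0.04 and -0.02 (adjusted p = 0.690 and 0.847).

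Among transcription factors 4 of 14 rose and 0 fell, with a median of 0.48. Irf7, an interferon regulatory factor downstream of the endosomal receptors, rose by 1.66 (SE 0.15, edgeR adjusted p = 0.00966), with 7.41 ± 1.36 CPM in controls and 23.5 ± 2.75 CPM in knockouts. Nfkbiz, an NF-kB cofactor, rose by 0.87 (SE 0.08, adjusted p = 0.00945), Irf1 by 0.50 (SE 0.06, adjusted p = 0.0151) and Irf5, which acts with Myd88, by 1.71 (SE 0.39, adjusted p = 0.0442). In normalized TPM, Irf7 in knockout replicate 3 (19.3) stood near the other knockouts (22.8 and 24.5), as did Nfkbiz (31.3 beside 29.2 and 33.7). Jun and Fos had log2 differences of 0.46 and 0.90 (adjusted p = 0.101 and 0.168), and Fos was highest in knockout replicate 3.

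Inhibitors of the pathway rose in 6 of 20 cases and fell in 0, with a median of 0.62. Trim30a, which targets TAB proteins for breakdown, rose by 1.46 (SE 0.15, edgeR adjusted p = 0.0107), Lilrb4a, an inhibitory receptor, by 2.52 (SE 0.52, adjusted p = 0.0368), Sigirr, an inhibitory member of the interleukin receptor family, by 0.63 (SE 0.13, adjusted p = 0.0370) and Socs3, a brake on cytokine signalling, from 12.8 ± 2.06 to 51.1 ± 25.9 CPM (adjusted p = 0.0387). Dusp1 and Trafd1 had log2 differences of 0.13 and 0.12 (adjusted p = 0.728 and 0.165). Mediators that the receptors induce had the largest median of these lists, 2.53, with 10 of 19 up and 0 down. Il6 rose by 4.88 (SE 0.95, adjusted p = 0.0338), Il1b by 3.87 (SE 0.76, adjusted p = 0.0340), Il1a by 2.84 (SE 0.52, adjusted p = 0.0322) and the prostaglandin synthase gene Ptgs2 by 1.94 (SE 0.24, adjusted p = 0.0168). Lcn2, an iron-binding protein, and Nos2, the inducible nitric oxide synthase, had log2 differences of 2.37 and 2.53 and did not pass (adjusted p = 0.146 and 0.0776).

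Of 17 tested sensors outside the family 12 rose and 0 fell, with a median of 2.07. Clec7a, a receptor for fungal glucans, rose by 3.11 (SE 0.40, edgeR adjusted p = 0.0177), and Zbp1, a sensor of left-handed nucleic acid, by 2.07 (SE 0.26, adjusted p = 0.0174). The cytosolic RNA sensors Ifih1 and Ddx58 rose by 0.72 (SE 0.07, adjusted p = 0.01) and 0.47 (SE 0.06, adjusted p = 0.0212). Clec4d and Nod2 had log2 differences of 3.06 and 0.42 (adjusted p = 0.0570 and 0.107).

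**Figure D5:**
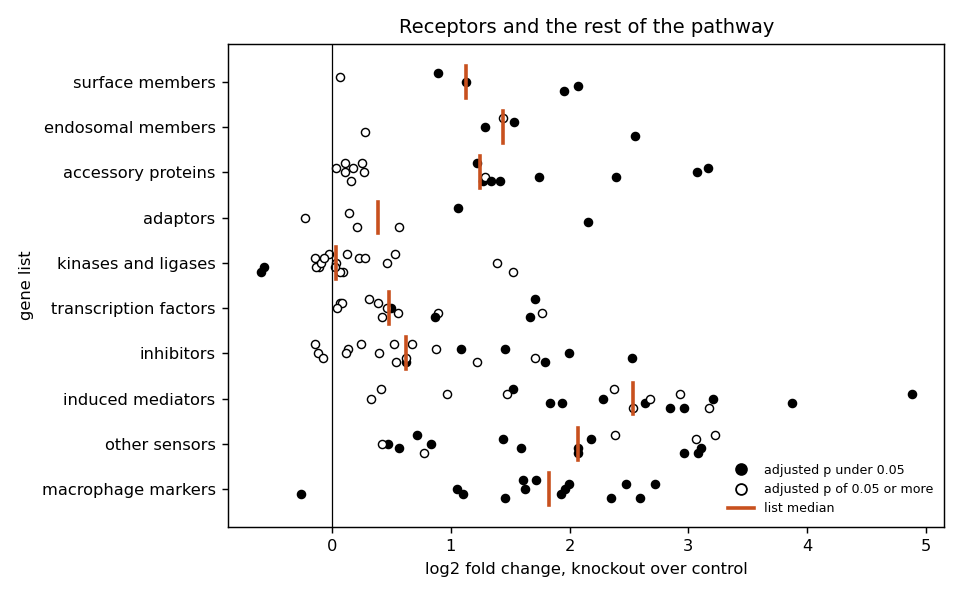
Log2 fold change, knockout over control, of each tested gene in the surface and endosomal members, the 7 pathway lists and the macrophage markers; filled points have an edgeR adjusted p under 0.05 and the bar is the list's median. Kinases and ligases lie around 0 (median 0.04), while induced mediators have a median of 2.53 and macrophage markers one of 1.82.

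The microRNA that the knockouts lack pairs with 3′ UTRs through its seed, bases 2 to 8, in capitals here (RefSeq, GRCm38.p6):
mmu-miR-26b-5p: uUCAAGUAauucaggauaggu
A site of 7 bases for this seed reads UACUUGA in a transcript. The microRNA mmu-miR-26a-5p holds the same seed, UCAAGUA, and the group labels name no deletion of it. Each such site is thus a match to both microRNAs. Only Tlr3 of the 10 genes held the site UACUUGA in its longest annotated 3′ UTR (GENCODE mouse release 21, GRCm38). It was also the only 1 with the other 7-base form, ACUUGAA, which is no further site but overlaps the first UACUUGA site below. Of 21022 genes 18.3% hold at least 1 site of either form, and the share for UACUUGA alone was not counted. The Tlr3 UTR, at 1496 bases, is longer than the median of 961. It held 2 sites, at bases 525 to 531 and 991 to 997, the first followed by an A and so counted as 8 bases. They are shown as DNA with the match in capitals:
Tlr3, first site: atgaatctaagtttTACTTGAaagtttt
Tlr3, second site: ttatggtataaggcTACTTGAggtaaca
The gene with these sites, Tlr3, had one of the 2 smallest log2 differences of the 10 genes, 0.28, and did not pass the test. None of the 7 genes that rose held a 7-base site, but their longest UTRs are mostly short: 58 bases for Tlr8, 148 for Tlr2, 166 for Tlr1, 233 for Cd14, 407 for Tlr7, 859 for Tlr13 and 1111 for Tlr6. Of the genes that rose, Tlr6 and Cd14 held 1 shorter match each, to the 6 bases ACUUGA. Tlr4, which did not pass the test, also held 1. Of the 21022 genes 31.6% hold such a match or a longer one. Binding to any of these sites was not tested.

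Promoters of 7 of the 10 genes were found in the RefSeq table (GRCm38.p6), in 9 windows from 250 bases before the start site to 50 after it. Tlr4, Tlr7 and Cd14 are named only. Motifs were searched on both strands: GAGGAAGT for PU.1, the master factor of macrophages, AAANNGAAA for the interferon-stimulated response element, and GGANNTTCC for NF-kB. They occur in 3.2%, 10.6% and 4.26% of all 32851 windows in the table. Positions are counted from the start site as base 1, with the base before it as -1. PU.1's motif began at -23 for Tlr1 and at 11 for Tlr9. The interferon element began at -191 for Tlr2, at -59 for Tlr3, and for Tlr6 at -116, -110 and -104, where the 3 matches overlap. The NF-kB letters GGANNTTCC were found for Tlr3 alone, at -210, and other forms of an NF-kB site were not searched for. No match was found in the windows of Tlr8 and Tlr13. The other window of Tlr1 (chr5:64932650-64932949) and that of Tlr6 (chr5:64959999-64960298) also held 0 matches. For Tlr6 and Tlr3 the window with matches lies inside the annotated span of the gene. That of Tlr3 also lies within the antisense gene Gm45542. The 250 bases before the start, from windows with a match, are shown for 2 genes that rose and 1 that did not, with matches in capitals:
Tlr1 (chr5:64933559-64933808, minus strand): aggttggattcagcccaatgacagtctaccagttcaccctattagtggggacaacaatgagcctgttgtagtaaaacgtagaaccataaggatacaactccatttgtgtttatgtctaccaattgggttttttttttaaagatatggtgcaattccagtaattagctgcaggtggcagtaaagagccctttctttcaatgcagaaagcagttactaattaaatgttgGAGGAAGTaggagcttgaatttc
Tlr6 (chr5:64959167-64959416, minus strand): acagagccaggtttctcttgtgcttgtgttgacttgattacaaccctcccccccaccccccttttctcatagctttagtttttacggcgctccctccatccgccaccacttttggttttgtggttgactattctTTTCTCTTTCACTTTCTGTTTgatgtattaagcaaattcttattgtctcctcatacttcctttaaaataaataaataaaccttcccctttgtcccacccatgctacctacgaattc
Tlr3 (chr8:45410381-45410630, minus strand): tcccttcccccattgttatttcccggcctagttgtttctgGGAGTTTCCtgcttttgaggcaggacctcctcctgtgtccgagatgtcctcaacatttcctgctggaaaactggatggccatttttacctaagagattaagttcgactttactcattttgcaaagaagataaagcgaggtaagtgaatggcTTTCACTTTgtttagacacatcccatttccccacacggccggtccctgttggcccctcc
A match is of letters alone and was not tested for binding.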

How the data were processed

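RNA of aortic arch and thoracic aorta was sequenced in 6 mouse libraries, 3 per group; the labels gave the group and the replicate number of each. The submitters' processing notes name kallisto 0.46.2, which assigns reads to transcripts by estimate, Trim Galore 0.6.5, FastQC 0.11.8 and the build GRCm38; the transcript annotation is not given in the sources used here. The deposited estimated counts per gene are not whole; in each library low values fell on steps of a constant between 0.9015 and 1.07, with 68.6% to 70% of them whole within 0.02 once divided by it, and no label used here records such a scaling. The deposited normalized TPM, made by the authors, has columns with unequal sums (955527 to 1034723) and was treated as a signal.

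After rounding of the estimated counts, genes were kept by filterByExpr with a minimum count of 10. The quasi-likelihood F-test of edgeR 4.0.16 in R 4.3.3 was run with TMM scaling and no covariate. A gene was called at a p under 0.05 after Benjamini-Hochberg adjustment over all tested genes, and standard errors are the log2 difference divided by the root of F. Totals per library were between 51634139 and 54817547, which leaves genes well under 1 CPM, such as Tlr11 in the controls, with few counts. No library pair within a group agreed within counting noise (mean chi-square per gene 12.2 to 111). The fit was also run on simulated counts with the same spread for every gene and no outlying library. These settings do not copy the uneven knockouts, so that run cannot show how the fit behaves on these data. With 3 libraries against 3 an exact permutation test cannot go below a p of 0.1, so none was used.

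The members, the gene lists and the naming rule were chosen with earlier results of these data known. The rule named all 10 members, in each pathway list up to 4 called genes of lowest p and 2 uncalled genes of highest level, and the most abundant markers. Lists held 16 tested accessory proteins, 6 adaptors, 19 kinases and ligases, 14 transcription factors, 20 inhibitors, 19 mediators and 17 other sensors, and markers of macrophages, neutrophils, dendritic, plasmacytoid dendritic, B, T, endothelial, smooth muscle, fibroblast and fat cells. Of the marker lists not described with the results, edgeR called 0 of 9 T cell, 0 of 10 B cell, 0 of 6 plasmacytoid dendritic cell and 0 of 8 fat markers (at an unadjusted p under 0.05, 2 T cell markers were higher and 2 B cell markers lower; DESeq2 called 1 of each and limma-voom 0). By edgeR 3 of 8 endothelial and 4 of 8 fibroblast markers rose, and 4 of 8 smooth muscle markers fell. Fat markers were uneven within both groups. They summed to 4386, 3288.5 and 1658 normalized TPM in control replicates 1, 2 and 3. In knockout replicates 1, 2 and 3 they summed to 1014, 1570 and 3684. Without knockout replicate 3 edgeR called 2 of the 8 lower, beside 2028 of 17720 tested genes. At an unadjusted p under 0.05, 7 fat markers were then lower. Their part in the results was not tested. Alternatives were other scaling, other filters, DESeq2 1.42.0, limma 3.58.1 (voom, and on log2 of normalized TPM plus 1 or 0.1), the replicate number as a block, omission of each library, a macrophage covariate, and summing of neighbouring receptors.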

Additional observations from a re-analysis of the deposited data

How the results depend on the processing

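The 3 other ways to scale libraries and both other filters on low counts left the calls on all 10 genes and the gap between surface and endosomal medians on the same side. Other tests moved the counts. DESeq2 called 8 members, adding Tlr9 (log2 1.44, adjusted p = 0.0223), and 65 pathway genes as higher. Limma-voom called 1 member and 16 pathway genes as higher; Tlr1 (2.03), Tlr2 (1.06), Tlr6 (0.86), Cd14 (1.81), Tlr8 (1.48) and Tlr13 (2.39) kept their direction at adjusted p of 0.0543 to 0.0812. On log2(normalized TPM + 1) limma called 0 members and 17 pathway genes, with Tlr1 at 1.24, Tlr2 at 1.01, Tlr6 at 0.50, Cd14 at 1.77, Tlr7 at 0.93, Tlr8 at 0.96 and Tlr13 at 1.80, adjusted p 0.0517 to 0.0799, and a surface minus endosomal gap of 0.08. With 0.1 in place of 1 it called 2 members and 19 pathway genes (641 of all tested genes higher), with Tlr1 at 1.40, Tlr2 at 1.08, Tlr6 at 0.70, Cd14 at 1.84 and Tlr8 at 1.21 no longer called and a gap of -0.12. With neighbours summed, 5 of 8 rows were called and the gap was -0.0061; without Cd14 it was -0.43 and without Tlr3 -0.36. The cause of these shifts was not tested.

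With the macrophage covariate 0 members and 0 pathway genes were called higher and 0 pathway genes lower (11 and 10 at an unadjusted p under 0.05). Log2 differences were then -0.45 for Tlr1, -0.39 for Tlr2, -0.41 for Tlr4, -0.52 for Cd14, -0.26 for Tlr9 and -0.22 for Tlr13, all reversed. They were 0.0051 for Tlr6, 0.31 for Tlr7 and 0.041 for Tlr8. The edgeR adjusted p of these genes was 0.680 to 0.998, with SE from 0.18 (Tlr7) to 0.92 (Tlr9). The gap was -0.45. As the covariate itself separates the groups, no conclusion is drawn from these signs. The members' median against macrophage markers, -0.72 on normalized TPM, was -0.33 in CPM and 0.14 against Csf1r alone.

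Same-numbered libraries of the groups deviated together with correlations of -0.07, 0.22 and 0.08, so the numbers were not taken to pair the samples, and not every library correlated best with its own number. With the replicate number as a block 7 members were called (1295 of all tested genes higher), Tlr9 in (1.61, adjusted p = 0.0396) and Tlr6 out (0.87, adjusted p = 0.0626), and 52 pathway genes rose.

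Leaving out 1 library at a time gave 0 to 7 members called higher, 0 to 79 pathway genes higher and 0 to 3 lower, and gaps of -0.44 to -0.091. Log2 differences ranged from 1.81 to 2.44 for Tlr1, 0.96 to 1.40 for Tlr2, -9.49e-05 (without knockout replicate 2) to 0.20 for Tlr4, 0.74 to 1.07 for Tlr6, 1.61 to 2.30 for Cd14, 0.16 to 0.34 for Tlr3, 1.16 to 1.45 for Tlr7, 1.32 to 1.79 for Tlr8, 1.09 to 2.20 for Tlr9 and 2.28 to 2.93 for Tlr13. The ratio to macrophage markers ranged from -0.88 to -0.60.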
